A study of Mus musculus with 2 samples.

Results

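The cells described here are the cycling IL-10 reporter T cells of the spleen. They were chosen by measured values: a barcode of the spleen library was taken when mitochondrially encoded (mt-) genes gave less than 6% of its UMIs (unique molecular identifiers, each standing for a captured transcript) and when the UMIs of Mki67, Top2a, Birc5, Cdk1 and 2810417H13Rik (the gene now named Pclaf) added up to at least 5. The spleen library held 1738 barcodes, of which 1681 passed the mitochondrial limit and 377 were cycling by this rule. They were 22.4% of the passing cells (exact 95% interval 20.5 to 24.5) and held 35.2% of their UMIs. The other 1304 passing cells, with a sum below 5, served as the comparison, and no cell was left out for its cell cycle phase. The series held 3212 barcodes in all, and the libraries shared 0 barcodes.

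The mice, 8 to 16 weeks old, carried 2 reporters, IL-10 eGFP and Foxp3 mRFP: green fluorescence reports Il10 and red fluorescence reports Foxp3. All mice had received the anti-CD3 antibody 2C11, 15 µg into the peritoneum on day 0 and on day 2, and were killed 4 h after the second dose, so neither group was an untreated control. CD4+ eGFP+ cells were sorted from spleen and from small intestine, Foxp3+ cells included, and 1 droplet (10x) library was made for each tissue. How many mice were pooled is not given in the sources used here. With 1 library per tissue there was no replicate check and no test between groups: levels are summed UMIs scaled to a common total (CPM), ratios are log2 of CPM in one group over another, and all intervals are exact 95% intervals that cover counting error only. Cells of a library share their mice, sort and preparation and are not replicates.

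A dividing cell licenses its replication origins in G1, copies its DNA and makes new histones in S phase, and then turns on the kinases, kinetochore proteins and spindle motors of G2 and mitosis. T cells that receive a signal through CD3 leave quiescence and pass through this programme while they take on effector or regulatory functions. IL-10 is an anti-inflammatory cytokine. It is made by Foxp3+ regulatory T cells and by Foxp3-negative CD4+ cells such as type 1 regulatory T cells, and also by effector cells.

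Promoters of mitotic genes are known to carry CCAAT boxes (bound by NF-Y) and the CHR element, those of replication genes E2F elements, and those of histone genes CCAAT boxes. The windows below were chosen after the search, to show such letters in 2 rule genes (Cdk1 and Top2a) and in a mitotic, a replication and a histone gene whose transcripts are described further on. They lie within the 100 bases before the RefSeq start (GRCm38.p6), less any bases that GENCODE places inside the gene, and read 5′ to 3′ on the gene's strand. Capitals mark the CCAAT box, the CHR element (searched as TTTGAA) and an E2F element (TTTGGCGC), each on either strand.
Cdk1, chr10:69352939-69353012, minus strand: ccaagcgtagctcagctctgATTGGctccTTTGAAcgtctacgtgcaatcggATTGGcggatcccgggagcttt
Top2a, chr11:99024190-99024289, minus strand: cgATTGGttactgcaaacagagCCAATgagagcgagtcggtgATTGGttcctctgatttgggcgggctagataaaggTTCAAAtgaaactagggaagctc
Cdc20, chr4:118437353-118437443, minus strand: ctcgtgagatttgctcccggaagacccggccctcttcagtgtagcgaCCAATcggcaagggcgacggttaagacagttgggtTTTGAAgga
Mcm6, chr1:128359706-128359805, minus strand: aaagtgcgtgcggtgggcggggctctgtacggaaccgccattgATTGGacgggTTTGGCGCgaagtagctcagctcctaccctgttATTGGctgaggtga
Hist1h1b, chr13:21780626-21780725, minus strand: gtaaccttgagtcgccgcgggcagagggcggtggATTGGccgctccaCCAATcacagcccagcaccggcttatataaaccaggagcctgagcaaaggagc

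Over the 250 bases before the start, searched on both strands, CCAAT stood in 45 of the 65 mitotic list genes that had an entry (of 76), in 15 of 15 replication histone genes (of 17) and in 4 of the 5 rule genes, against 33.8% of 32851 promoters. TTTGAA stood in 18 of the 65, in 8 of the 15 and in 3 of the 5, against 5252 of the 32851. TTTCCCGC, TTTGGCGC, TTTCGCGC or TTTGCCGC stood in 3 of the 65, in 2 of the 15 and in 1 of the 5, against 1.86% of all promoters. Of the 53 licensing and replication genes 41 had an entry. So many were missing that the search is void for that list, and no count is given. These matches describe letters, not binding.

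The cycling cells were the deeper cells of the library. Their median was 9595 UMIs and 2787 genes (2228 to 30383 UMIs), against 4979 UMIs and 1757.5 genes (1613 to 18757 UMIs) in the other cells, a ratio of medians of 1.93 for UMIs. Of the cells below the sum, 5.83% were deeper than the cycling median. The rule sums raw UMIs, so a deeper cell reaches it more easily, and shares of cells are given after each cell was thinned at random to 3000 UMIs, which left out 4 cycling and 167 other cells. At that depth a sum of at least 2 was reached by 418 of 1510 cells, 27.7%. The median sum of the cycling cells was 21 (quartiles 12 and 33, highest 83). Just inside the rule, 18 cells had a sum of 5 (median 7599 UMIs). Just outside it, 24 cells had a sum of 4 (median 8220.5 UMIs). The mitochondrial share was alike, with a median of 2.27% in cycling and 2.48% in other cells. The doublet caller Scrublet marked 4 of the 1738 barcodes and none of the cycling cells. The part of doublets in the depth of these cells was not tested.

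**Figure D1:**
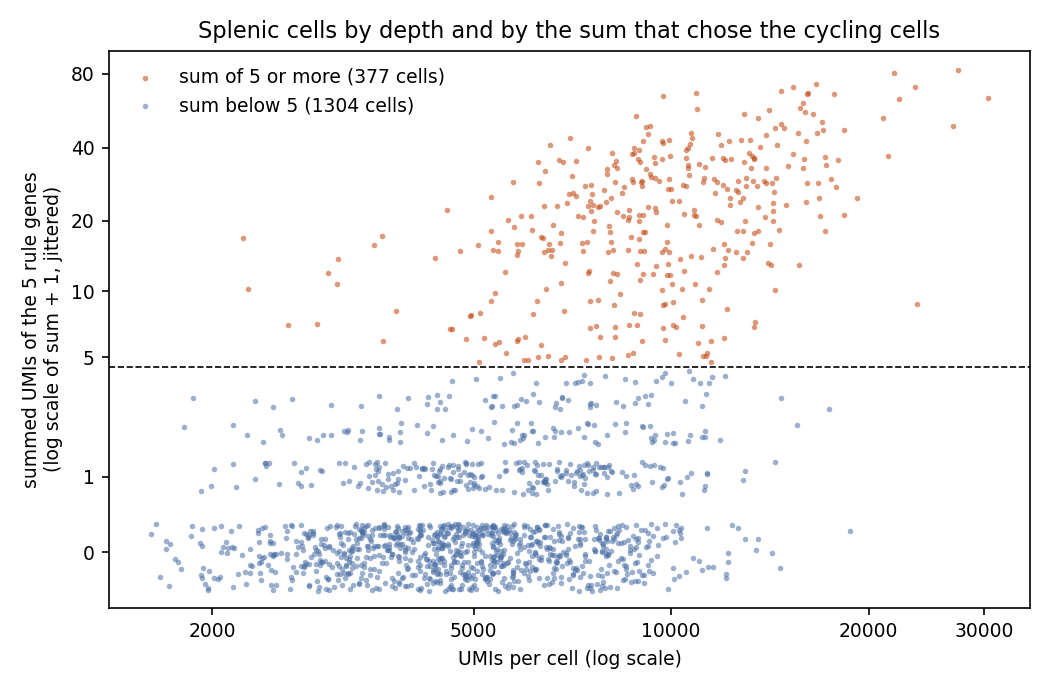
Each point is a splenic cell that passed the mitochondrial limit, with its UMIs on the horizontal axis (log scale) and the summed UMIs of the 5 rule genes on the vertical axis (log scale of the sum plus 1, jittered). The 377 cycling cells lie above the dashed line and to the right of the bulk of the 1304 other cells, with medians of 9595 and 4979 UMIs.

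The markers of the label were high. Hmgb2, a chromatin protein of dividing cells, had 3787 CPM in cycling and 464 CPM in other cells. Stmn1, which destabilises microtubules, had 1466 and 115 CPM. Neither was in the rule, and at 3000 UMIs Hmgb2 was found in 99.5% and 56.6% of the cells and Stmn1 in 95.7% and 19.3%. All 377 cycling cells had at least 3 UMIs of the CD4 T cell markers, whose 4 genes in the files summed to 3130 CPM against 3908 CPM. Cd4 itself had 179 and 223 CPM.

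Of the markers of other cell types, most were at or near 0, while Xbp1 and Cst3 were found in many cells. Cd8a had no UMI in either group, and the CD8 list rested on 36 and 103 UMIs of Cd8b1. Of the B cell markers Cd79b led, 31 and 35 UMIs in all, and 1 cell in each group had 3 or more UMIs of the list. The NK list had 5 and 28 UMIs, the erythroid list 0 and 3, the dendritic cell list 15 and 24, and the platelet list none. Of 3 gamma-delta T cell markers the files held only Sox13, with no UMI. The plasma cell list had 462 and 737 UMIs (120 and 104 CPM), and Xbp1 gave 461 and 729 of them. At least 3 UMIs of that list were found in 64 cycling and 50 other cells. Sdc1 had 1 UMI in each group, and Jchain 0 and 7. The myeloid list had 675 and 1132 UMIs (175 and 160 CPM), and Cst3 gave 657 and 1079 of them. At least 3 UMIs of that list were found in 104 cycling and 92 other cells. Lyz2 had 18 and 50 UMIs, and Csf1r none. T cells also express Xbp1 and Cst3, and the part of other cell types in the results was not tested.

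The rule genes are given as a description. At 2810417H13Rik, a PCNA-binding factor, the cycling cells had 886 CPM and the other cells 29.7 CPM. Birc5, an inhibitor of apoptosis that serves in cytokinesis, had 563 and 24.5 CPM, and Top2a, which untangles DNA, 519 and 24.9 CPM. Mki67, the Ki-67 antigen, had 211 and 9.16 CPM. Cdk1, the kinase that drives mitosis, had 192 and 2.54 CPM, and was found in 39.9% and 0.967% of cells at 3000 UMIs. In the mouse genome (mm10) Mki67 lies at chr7:135689784-135716361 and Cdk1 at chr10:69335146-69352938, both on the minus strand.

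Across the 7048 genes with at least 100 UMIs over both groups, 912 were at least 1.5-fold higher in cycling cells, which is 12.9%, and 606 were at least 1.5-fold lower, which is 8.60%. The median ratio over the 7048 genes was close to 0. Among cells of 6000 to 15000 UMIs 687 genes were higher and 340 lower. The minimum of 100 UMIs was applied anew to those cells, so fewer genes were tested. These 2 counts therefore cannot be set directly against the counts over all cells. Below, "higher" and "lower" for a list mean past this 1.5-fold line, and a ratio stands for the log2 of cycling over other cells.

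In 10 lists of proliferation genes, without the rule genes, 164 of 171 members tested were higher and 1 was lower, with a median ratio of 3.03. These genes held 4.44% of the UMIs of the cycling cells and 0.933% of those of the other cells. The cells were chosen on genes of the same programme, so the direction is not independent of the rule.

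All 15 origin licensing genes tested were higher, with a median ratio of 2.52. They encode the MCM helicase and the factors that load it. Mcm3 had 212 CPM in cycling and 36.9 CPM in other cells, Mcm5 168 and 24.1 CPM, and Mcm7 163 and 22.6 CPM. Mcm6, with the E2F element shown above, had the lowest ratio of the list, 1.10 (266 and 124 CPM), and Cdc45, which joins MCM in the active helicase, the highest, 4.27.

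All 34 replication genes tested were higher too, with a median of 2.73. Rrm2, the subunit of ribonucleotide reductase that cells make in S phase, had 380 and 11.8 CPM. Pcna, the sliding clamp, had 308 and 77.1 CPM, and Dut, which keeps uracil out of DNA, 373 and 85.4 CPM. Esco2, which acetylates cohesin behind the fork, had 236 UMIs in cycling and 2 in other cells, a ratio of 7.76 (5.89 to 10.82). Rpa1, which coats single-stranded DNA, had the lowest ratio, 1.06.

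The replication histone genes stood out even more, with 13 of 13 higher and a median of 3.63. Hist1h2ap had 1918 and 31.8 CPM, a ratio of 5.91 (5.72 to 6.11), and was found in 70.0% and 7.65% of cells at 3000 UMIs. Hist1h2ae had 356 and 10.4 CPM. The linker histone Hist1h1b had 836 UMIs in cycling and 39 in other cells. Most transcripts of these genes lack a poly(A) tail and the genes are near-identical copies, so the level of any single copy is uncertain.

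Of 16 chromatin proteins 15 were higher, with a median of 2.10. Ptma, a small acidic nuclear protein, was the most abundant, with 5944 and 1860 CPM. H2afz, a histone variant made throughout the cycle, had 2918 and 575 CPM, and H2afx, which marks DNA breaks, the highest ratio, 3.13. Only Hmgn1, at 0.58, stayed inside the line.

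Mitotic genes were higher throughout the lists. The mitotic kinases and their partners were higher in 12 of 12 (median 4.61), the checkpoint and anaphase genes in 14 of 14 (3.78), the kinetochore genes in 18 of 18 (4.06), the spindle and cytokinesis genes in 25 of 25 (4.37) and the condensin and cohesin genes in 10 of 10 (3.02).

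Ccnb1, cyclin B1, had 175 CPM in cycling and 9.30 CPM in other cells. Ccnb2 had 257 and 30.9 CPM. Pbk, a mitotic kinase, reached a ratio of 6.35 on 267 and 6 UMIs. Cdc20, which activates the anaphase-promoting complex and whose promoter window is shown above, had 181 CPM in cycling cells and was found in 36.7% of them at 3000 UMIs. Ube2c, the complex's ubiquitin-conjugating enzyme, had 415 and 27.5 CPM, while Bub3, with 302 and 132 CPM, had the lowest ratio of its list.

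Cenpa, the histone of the centromere, had 536 and 82.0 CPM. Spc25, of the NDC80 complex, had the highest kinetochore ratio, 6.30. Tubulins were abundant in both groups, with Tubb5 at 1464 and 248 CPM and Tuba1b at 1305 and 171 CPM. The motor Kif11 had 84.2 and 1.13 CPM, a ratio of 6.22. Smc2, a condensin subunit, had 274 and 11.3 CPM, while the cohesin subunit Smc3 had 112 and 57.9 CPM.

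**Figure D2:**
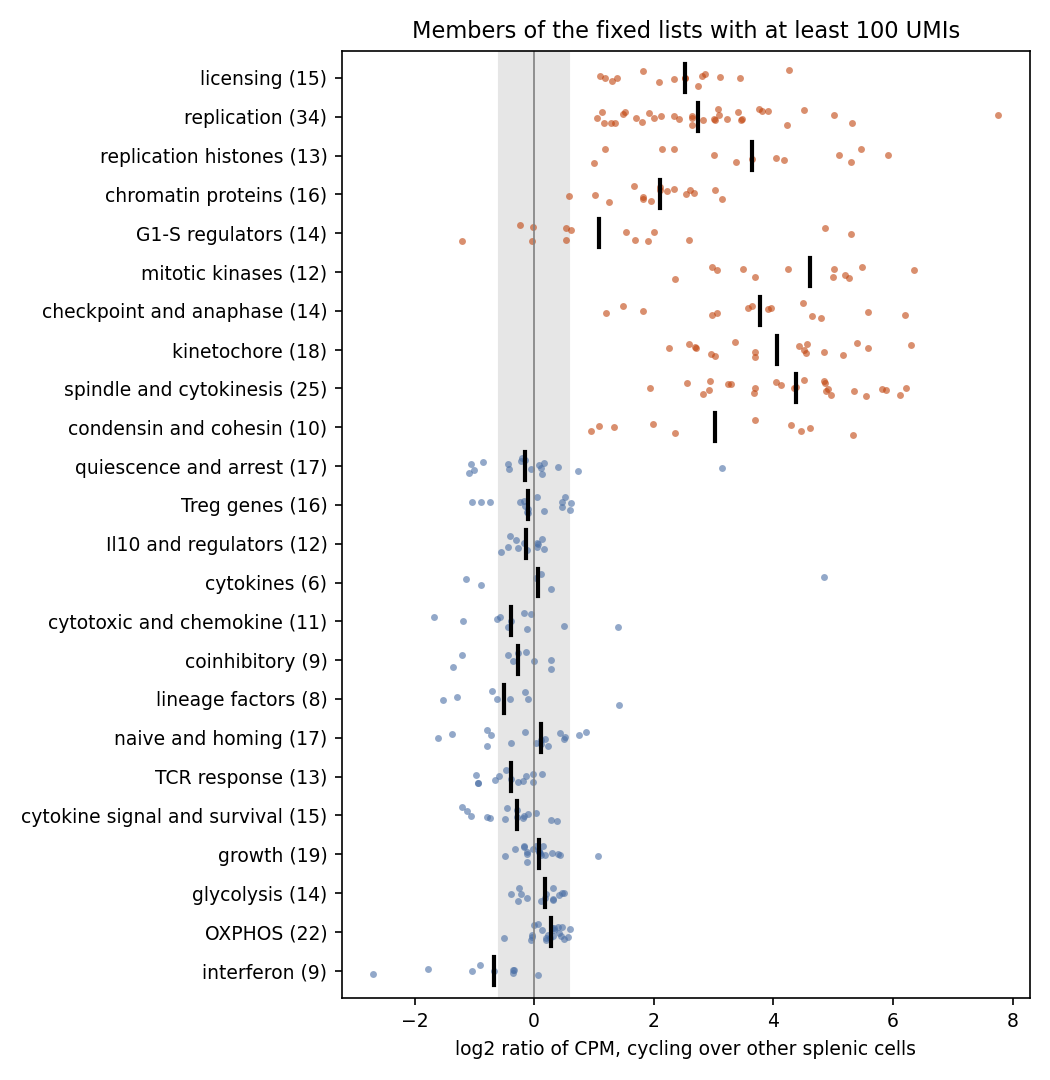
Each point is a gene of a fixed list with at least 100 UMIs, placed by its log2 ratio of CPM in cycling over other splenic cells, with the number of genes in parentheses, a black bar at the list's median and the 1.5-fold band in grey. The proliferation lists (red) lie to the right, with medians from 1.08 to 4.61, and the medians of the other lists (blue) lie between -0.68 and 0.28.

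The regulators of the G1 to S step were mixed, with 8 of 14 higher, 1 lower and a median of 1.08. Ccna2, cyclin A2, had the highest ratio, 5.30 (228 and 5.78 CPM). Ccnd2, the D-type cyclin that couples growth signals to G1, was the member that was lower: 347 CPM in cycling and 801 CPM in other cells, a ratio of -1.21 (-1.29 to -1.12). Its partner kinase Cdk4 had a ratio of 0.53 and Ccnd3 one of -0.02.

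Genes of quiescence and arrest did not move as a group. Of 17 tested, 2 were higher and 4 lower, with a median of -0.16. The antiproliferative genes Btg1 (639 and 1285 CPM, -1.01) and Btg2 (-0.86) were lower, as were Pdcd4 (-1.09) and Txnip (-1.06), which restrains glucose uptake. Cdkn2c went the other way. It encodes p18-INK4c, an inhibitor of CDK4 and CDK6, and had 196 CPM in cycling and 22.1 CPM in other cells, a ratio of 3.15 (2.90 to 3.40). Ccng2 was also higher (0.73). Cdkn1a and Cdkn1b, which encode p21 and p27, had ratios of 0.12 and -0.45.

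The cycling cells differed in their balance of replication and mitosis genes. At 3000 UMIs the 53 licensing and replication genes gave a median of 15 UMIs per cell and the 49 genes of the mitotic kinase, checkpoint and kinetochore lists a median of 18. Replication UMIs were the more numerous in 164 of 373 cells, mitosis UMIs in 204, and 5 cells had as many of each. Over the 373 cells the rank correlation of both sums was -0.23, a description of sums that share each cell's fixed total, and many cells held UMIs of both kinds.

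The cyclone classifier, which compares pairs of cell cycle genes within a cell, placed 157 of the 377 cells in G1, 52 in S and 168, or 44.6%, in G2/M. Of the other splenic cells 1284 were called G1, 6 S and 14 G2/M. So the cycling cells held 89.7% of all S calls and 92.3% of all G2/M calls of the spleen, but 10.9% of the G1 calls. By these calls 209 of the 377 cells were not in G2/M. They were made anew here, so they need not be the calls behind the study's own filter on G2/M cells. Cyclone reads genes of the same programme as the rule, so these calls are a description.

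Cells called G1 did not lack the programme. They had a median sum of 15, and 388 CPM of Pcna and 263 CPM of Mcm3, against 195 and 145 CPM in cells called G2/M. Ccnb1 had 62.6 CPM in cells called G1 and 323 CPM in cells called G2/M. Cdkn2c went with the mitotic genes, with 87.3, 181 and 315 CPM in cells called G1, S and G2/M.

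**Figure D3:**
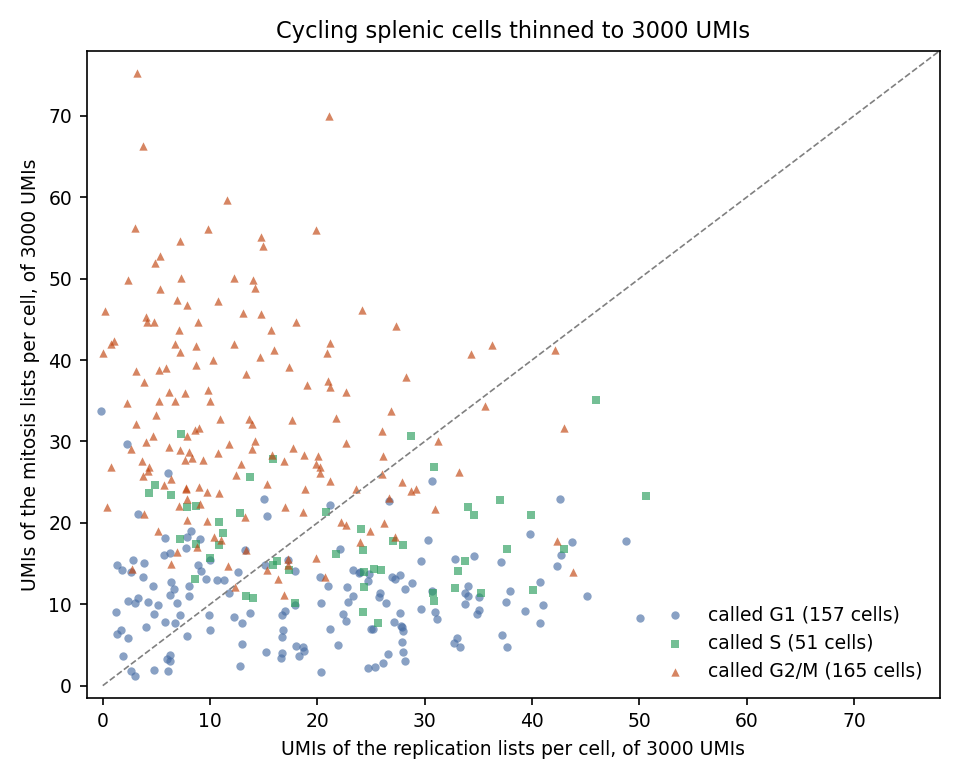
Each point is a cycling splenic cell thinned to 3000 UMIs, with UMIs of the 53 licensing and replication genes on the horizontal axis and UMIs of the 49 mitotic kinase, checkpoint and kinetochore genes on the vertical axis, coloured by cyclone call. Cells called G2/M lie mostly above the dashed line of equal numbers, with 204 of all 373 cells above it and 164 below.

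The sum itself ordered the cells by depth: the medians were 7772, 8599, 10008 and 14033 UMIs at sums of 5 to 9 (69 cells), 10 to 19 (101 cells), 20 to 39 (151 cells) and 40 or more (56 cells). Rrm2 went from 94.9 CPM in the first of these bins to 531 CPM in the last, and Cdkn2c from 41.2 to 267 CPM. Ccnd2 went from 503 to 258 CPM. Cells with sums of 1 to 4 already had 833 CPM of Hmgb2, against 275 CPM at a sum of 0. Il10 had 568, 584, 502 and 373 CPM over the 4 bins, and Ccl5 1782, 2000, 1475 and 623 CPM. In the comparison cells, Il10 had 400 CPM at a sum of 0 and 571 CPM at sums of 1 to 4. Ccl5 had 3273 and 3457 CPM there.

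Foxp3, the lineage factor of regulatory T cells (chrX:7573644-7595245), had 262 UMIs and 67.9 CPM (59.9 to 76.6) in the cycling cells, and 336 UMIs and 47.4 CPM in the other cells. The ratio was 0.52 (0.28 to 0.76), inside the 1.5-fold line. A Foxp3 UMI was found in 36.3% of the cycling and 15.9% of the other cells as deposited. At 3000 UMIs the shares were 14.7% (11.3 to 18.8) and 9.67% (8.02 to 11.5), closer together than as deposited.

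The remaining gap also narrowed when deeper cells were compared. Among cells with 6000 to 15000 UMIs, 289 cycling and 439 other cells, the ratio was 0.29 with an interval that reached 0 (-0.0025 to 0.58), and the shares at 3000 UMIs were 16.3% and 13.2%. At 5000 UMIs they were 21.5% (17.4 to 26.1) of 358 and 18.6% (15.7 to 21.9) of 644 cells, a difference within the counting intervals. Even in that range the cycling cells were deeper, with medians of 9680 and 7666 UMIs. Intestinal cells with both Cd8a and Cd8b1, a type that should lack Foxp3, had 1 Foxp3 UMI in 145 cells (median 4468 UMIs) and none in 123 cells at 3000 UMIs. They come from the other library, since the spleen held no such cells.

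The mRFP transcript of the Foxp3 reporter, named after its values were seen, had 20.5 CPM in cycling and 10.0 CPM in other cells, a ratio of 1.03 (0.55 to 1.52) on 79 and 71 UMIs. Among cells of 6000 to 15000 UMIs the ratio was 0.65. A UMI of Foxp3 or mRFP was found in 158 of the 377 cycling cells, 41.9%, and of both in 39 cells. A cell without such a UMI may still express either gene: mRFP was found in only 39 of the 137 cycling cells with a Foxp3 UMI, 28.5%, and in 21 of the 240 without, 8.75%.

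Il10 was near equal. It had 1943 UMIs and 504 CPM (481 to 526) in the cycling and 3248 UMIs and 458 CPM in the other cells, a ratio of 0.14 (0.056 to 0.22). At 3000 UMIs an Il10 UMI was found in 61.9% (56.8 to 66.9) of the cycling and 53.6% of the other cells. Among cells of 6000 to 15000 UMIs the ratio was 0.037, and among cells with no Foxp3 UMI it was 0.0047 (-0.11 to 0.11). Il10 lies at chr1:131019845-131024974. The eGFP transcript by which the cells had been sorted gave 3 UMIs in the cycling and 4 in the other cells, too few to compare, and 299 of the 377 cycling cells gave an Il10 UMI as deposited.

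Of the 12 genes tested on the list of Il10 and its regulators, none passed the 1.5-fold line. Maf, which binds the Il10 promoter, had 529 and 654 CPM (-0.31). Prdm1, encoding Blimp-1, had 77.7 and 69.8 CPM (0.16), Batf 386 and 374 CPM (0.04), and Ahr 71.3 and 67.9 CPM (0.07).

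Among 16 genes of regulatory T cells, 2 were higher and 3 lower, with a median of -0.11. Ctla4, the receptor that competes with CD28 for its ligands, had 1942 CPM in cycling and 1287 CPM in other cells, a ratio of 0.59 (0.55 to 0.64) just past the line, and Capg, an actin capping protein, one of 0.61. Ctla4 was at 0.44 among cells of 6000 to 15000 UMIs. Il2ra, the high-affinity IL-2 receptor chain, had 194 and 141 CPM (0.46), and Ikzf2, encoding Helios, 207 and 245 CPM (-0.24). Izumo1r (-0.88), the folate receptor 4 of regulatory T cells, Tnfrsf9 (-0.75), encoding 4-1BB, and Lrrc32 (-1.04), encoding GARP, were lower. So Foxp3, Ctla4 and Il2ra lay on the higher side and other genes of the same list on the lower.

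Cytotoxic and chemokine genes were mostly at or below the level of the other cells, with 1 of 11 higher, 3 lower and a median of -0.39. Ccl5 had 1462 and 3335 CPM, a ratio of -1.19 (-1.23 to -1.15), which was -0.63 among cells of 6000 to 15000 UMIs. Its shares of cells at 3000 UMIs were closer, 28.4% (23.9 to 33.3) and 33.0% (30.3 to 35.8), with intervals that overlapped. Gzma was lower (18.4 and 58.6 CPM, -1.67), and Fasl was lower on 27 and 76 UMIs. Gzmb had 929 and 1039 CPM (-0.16) and Nkg7 1042 and 1133 CPM (-0.12). Their shares of cells at 3000 UMIs went the opposite way (44.2% and 30.7% for Gzmb), so no order is read from either. The Gzmb ratio was 0.04 without G2/M cells, 0.065 with every cell weighed the same and 0.22 among cells with no Foxp3 UMI.

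Ccl3 was higher (308 and 117 CPM, 1.40), but 380 of its 1188 UMIs in the cycling cells came from 1 cell, and with the top cell of each group left out the ratio was 0.93. Ccl4 had 1136 CPM in cycling and 804 CPM in other cells, and 1066 of its 4385 UMIs in the cycling cells came from 1 cell.

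Of 6 cytokine genes tested, Ifng was near equal, with 61.2 and 56.5 CPM (0.11), and so was Tgfb1 (0.28). Il21, a cytokine of T cell help to B cells, was lower, with 38.6 and 71.7 CPM (-0.89), and so was Areg (-1.14). Il17a was higher, with 109 UMIs in 11 cycling cells against 7 UMIs in 5 other cells, a ratio of 4.84 (3.75 to 6.19). A single cell held 61 of the 109 UMIs, and with the top cell of each group left out the ratio was 4.47. Il4 had 2 UMIs in cycling and 84 in other cells, 41 of them in 1 cell.

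**Figure D4:**
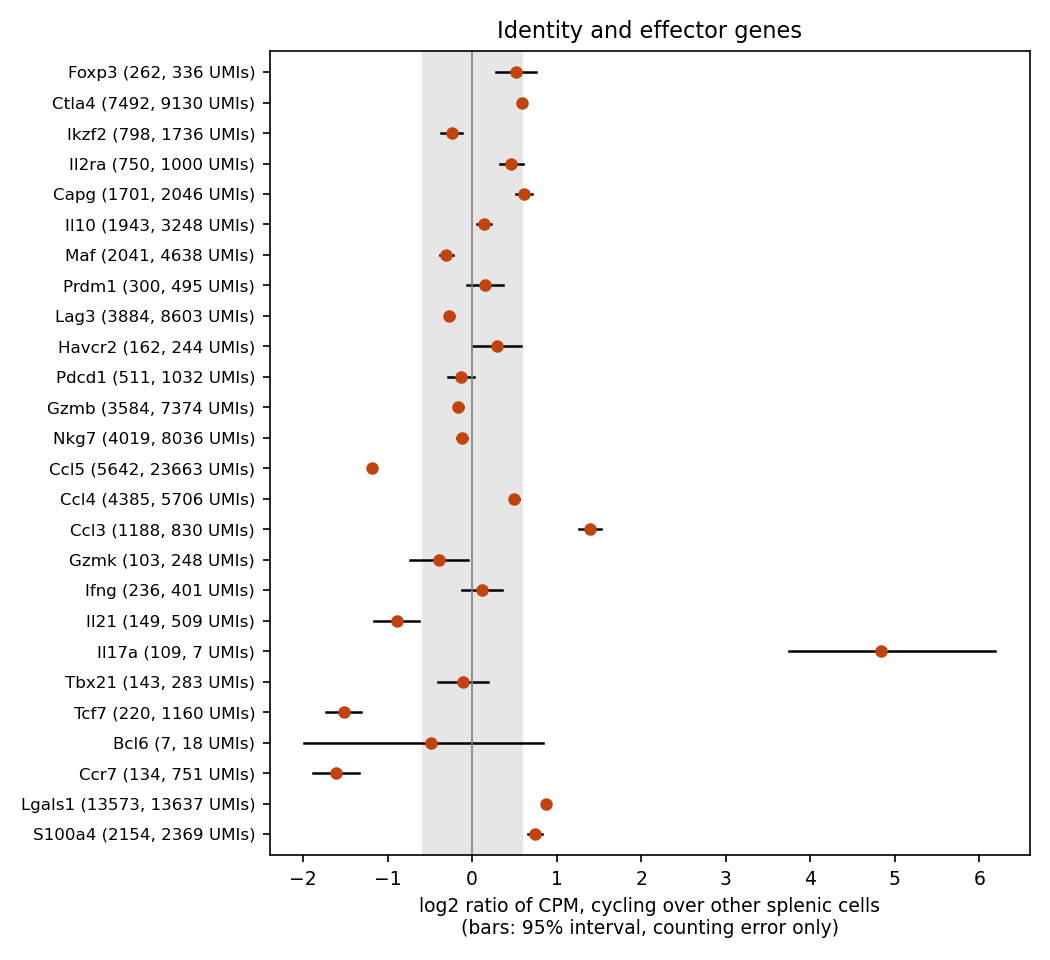
Points are log2 ratios of CPM in cycling over other splenic cells for identity and effector genes, bars are 95% intervals for counting error, and the grey band is the 1.5-fold line. Most genes sit in or near the band, Foxp3 at 0.52 and Il10 at 0.14, while Il17a (4.84) and Ccl3 (1.40) lie to the right and Ccr7 (-1.61) and Tcf7 (-1.52) to the left.

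Coinhibitory receptors were near equal or lower, with 2 of 9 lower. Lag3 had 1007 and 1213 CPM (-0.27), Pdcd1 132 and 145 CPM (-0.14), and Havcr2, encoding TIM-3, 42.0 and 34.4 CPM (0.29). The lower members were Cd200 (67.9 and 174 CPM, -1.35) and Cd160 (-1.21). Lag3 was at -0.02 among cells of 6000 to 15000 UMIs.

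Genes of less differentiated and follicular T cells were lower. Tcf7, encoding TCF-1, had 57.0 and 164 CPM, a ratio of -1.52 (-1.73 to -1.31), and was found in 12.6% and 30.2% of cells at 3000 UMIs. Cxcr5, the receptor that leads cells to follicles, had 30.8 and 75.4 CPM (-1.29), and Lef1 52.9 and 86.4 CPM (-0.71). Of 8 lineage factors 4 were lower. Among 17 naive and homing genes, Ccr7 (34.7 and 106 CPM, -1.61), Dapl1 (-1.38), Il7r (-0.79), S1pr1 (-0.79) and Satb1 (-0.72) were lower. Lgals1, encoding galectin-1, was higher, with 3517 and 1922 CPM (0.87, 0.84 to 0.91), and so was S100a4 (558 and 334 CPM, 0.74). Tbx21 and Gata3, the factors of Th1 and Th2 cells, had ratios of -0.11 and -0.15.

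Genes that answer T cell receptor signals were not higher in cycling cells, with 0 higher and 4 lower of 13. The lower members were Jun (-0.97), Cd69 (-0.95), Nr4a2 (-0.94) and Tnfaip3 (-0.66), while Nr4a1 had a ratio of -0.015 and Egr1 one of -0.017. Of 15 genes of cytokine signalling and survival 5 were lower, among them the survival gene Bcl2 (31.1 and 71.5 CPM) and the feedback inhibitors Socs1 (-1.12) and Socs3 (-1.05). Of 9 interferon-induced genes 5 were lower, from Ifit3 (3.89 and 25.1 CPM, -2.69) and Ifit1 (-1.78) to Usp18 (-0.68), while Ly6a had 0.06. Among cells of 6000 to 15000 UMIs Ifit3 had a ratio of -1.42 and Tcf7 one of -1.02.

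Growth and energy genes differed little per UMI. Of 19 growth genes Ran, which drives nuclear transport and spindle assembly, was higher (1257 and 596 CPM, 1.08), and Myc had 55.5 and 77.9 CPM (-0.49). Of 14 glycolysis genes none passed the line, with a median of 0.18, and Gapdh had the highest ratio, 0.50. Of 22 genes of oxidative phosphorylation 1, Sdhd, was higher, with a median of 0.28. The 80 ribosomal protein genes tested held 21.1% of the UMIs of the cycling and 26.6% of those of the other cells, with a median of -0.30. These are shares of a cell's UMIs: the cycling cells held more UMIs, so a gene at a ratio of 0 gave more UMIs per cycling cell.

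Outside the lists, the genes with the highest ratios and at least 200 UMIs were Cit (6.30), a kinase of cytokinesis, Mxd3 (6.24), Cdca5 (5.97), encoding sororin, Clspn (5.54), encoding the checkpoint adaptor claspin, Shcbp1 (5.44) and Cdca2 (5.34). The lowest were Spp1 (-5.19), Kdm5b (-2.83), a histone demethylase, Tcp11l2 (-2.82), Nsg2 (-2.12) and Tnfsf8 (80.1 and 302 CPM, -1.91), encoding CD30 ligand. The Spp1 value rested on 201 UMIs in 12 other cells, while Kdm5b was found in 20 of the cycling and 244 of the other cells. Mxd3 and Mxd4, both partners of Max that oppose Myc, lay at opposite ends, Mxd4 at -1.84 (14.0 and 50.2 CPM).

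Within the cycling cells, 137 had a Foxp3 UMI and 240 had none. The first were deeper (medians of 11485 and 8967.5 UMIs), and the second are not all Foxp3-negative. Of 4469 genes with at least 100 UMIs over these cells, 96 were at least 1.5-fold higher in cells with a Foxp3 UMI, which is 2.15%, and 186 lower, which is 4.16%. Of 12 regulatory T cell genes tested, without Foxp3, 3 were higher (Il2ra, Capg and Nt5e) and 0 lower. Of 8 cytotoxic and chemokine genes 7 were lower, of 4 cytokines 3, and of 7 lineage factors 3.

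Il10 had 627 CPM in cycling cells with a Foxp3 UMI and 415 CPM in those without, a ratio of 0.59 (0.46 to 0.72). At 3000 UMIs an Il10 UMI was found in 43 of 55 cells with a Foxp3 UMI, 78.2%, and in 188 of 318 without, 59.1% (53.5 to 64.6). Il2ra had 276 and 136 CPM (1.02), but a ratio of 0.40 when Foxp3 detection was taken at 3000 UMIs. Socs2, an inhibitor of cytokine signals, had a ratio of 1.45.

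On the lower side were Ifng (7.45 and 99.6 CPM, -3.74), Ccl3 (-3.03), Ccl5 (324 and 2277 CPM, -2.81), Ccl4 (-2.49), Tcf7 (-2.30), Bhlhe40 (-2.04) and Pdcd1 (-1.27). Gzmk, granzyme K, had 2 and 101 UMIs. Genes outside the lists, named after their values were seen, were Iigp1 (1.72) and Ifi47 (0.74), both interferon-induced GTPases, on the higher side, and Tnfsf8 (-2.23) and Klf2 (-1.37) on the lower.

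Cycling genes were somewhat lower in the cells with a Foxp3 UMI. Of 164 proliferation genes without the rule genes 0 were higher and 27 lower, with a median of -0.29, and 10 of the 27 were spindle and cytokinesis genes. The licensing list had a median of -0.11 with none past the line. Of the cells with a Foxp3 UMI at 3000 UMIs, 55 of 165 were cycling, 33.3% (26.2 to 41.1), against 318 of 1345 without, 23.6% (21.4 to 26.0). Only Foxp3 detection was thinned for these shares, while cycling was called on each cell's raw UMIs.

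The same contrast was made in the 1304 cells below the sum, where 207 had a Foxp3 UMI. The ratio for Il10 was 0.62 (0.51 to 0.73) there, against 0.59 in cycling cells. Of 4279 genes with at least 100 UMIs in both contrasts, 3.65% were higher and 4.02% lower in the cells with a Foxp3 UMI below the sum. Of the 12 regulatory T cell genes 8 were higher there (median 0.79), against 3 in cycling cells (median 0.34). The ratio was larger below the sum for 53.3% of all 4279 genes and for 11 of the 12, Nt5e being the exception (0.20 below and 0.62 in cycling cells), and this difference was not tested. Il2ra had ratios of 1.40 below and 1.02 in cycling cells. Among the others, Capg had ratios of 1.58 below and 0.62 in cycling cells, Ikzf2 1.16 and 0.48, Ctla4 0.88 and 0.19, and Tnfrsf9 1.80 and 0.27. The larger ratio below the sum had an interval apart from that in cycling cells for 3.08% of the 4279 genes and for 8 of the 12, these 4 among them. A smaller ratio below the sum, with intervals apart, was found for 2.36% of the 4279 genes and for 0 of the 12. Abundant genes have narrow intervals, and the list's genes were chosen with earlier results known, so the counts are a description. For Ctla4 and Capg the cells that differed most were those with no Foxp3 UMI, with 1835 CPM of Ctla4 in cycling and 1106 CPM in other cells. Gzmb changed side, with 826 and 1003 CPM in cycling cells (-0.28, -0.38 to -0.18) and 1764 and 862 CPM in the others (1.03). Detection of Foxp3 depends on depth, which differed between these groups, and its part in these gaps was not tested.

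**Figure D5:**
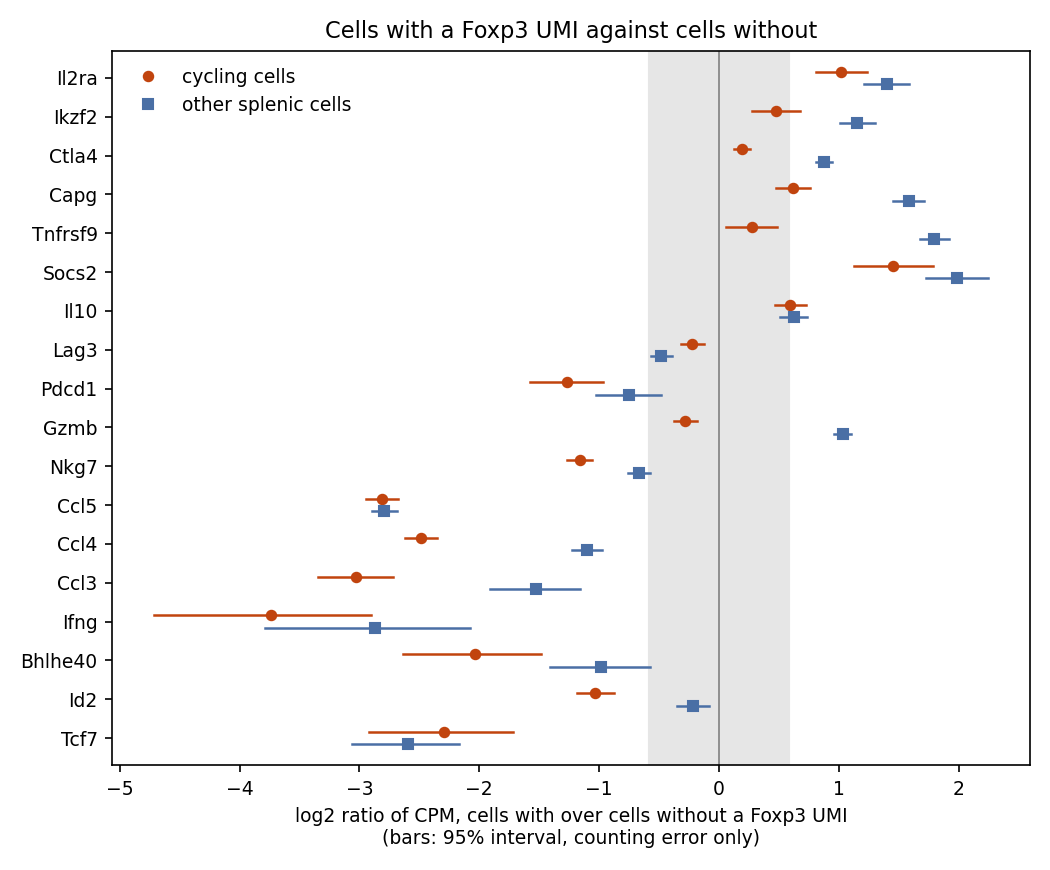
Points are log2 ratios of CPM in cells with over cells without a Foxp3 UMI, in red for the 377 cycling cells and in blue for the 1304 other splenic cells, with 95% intervals for counting error and the 1.5-fold line in grey. Gzmb lies on opposite sides (-0.28 and 1.03), and Ctla4 (0.19 and 0.88), Capg and Tnfrsf9 lie nearer to 0 in cycling cells.

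In the small intestine the same rule found 88 cycling cells among 1408, or 6.25% (5.04 to 7.64), with a median of 6432 UMIs. At 3000 UMIs a sum of at least 2 was reached by 93 of 982 intestinal cells, 9.47% (7.71 to 11.5), so the splenic share stayed higher at equal depth. Tissue and library cannot be told apart here. Of 4886 genes, 1094 were at least 1.5-fold higher in the splenic cycling cells, which is 22.4%, and 680 were lower, which is 13.9%.

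Replication genes were close between the tissues, and mitotic genes were in part lower in spleen. Hmgb2 had 3787 CPM in splenic and 4133 CPM in intestinal cycling cells, Stmn1 1466 and 1425 CPM, and Mcm3 212 and 200 CPM. Of 172 proliferation genes without the rule genes 10 were higher in spleen and 36 lower, with a median of -0.23. Lower were 14 of 26 spindle and cytokinesis genes (median -0.62) and 8 of 18 kinetochore genes (-0.43), while of 34 replication genes 2 were higher and 1 lower (0.02). Of the 88 intestinal cycling cells 58, or 65.9%, were called G2/M, against 44.6% (39.5 to 49.7) in spleen.

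Identity genes differed far more. Splenic cycling cells had more S100a4 (558 and 11.3 CPM) and Foxp3 (262 UMIs against 3), and all 18 growth genes tested were higher, with a median of 1.45. Intestinal cycling cells had more Gzma (18.4 and 22482 CPM), Ccl5 (1462 and 22357 CPM), Gzmb (929 and 8857 CPM) and Ccr9, the gut homing receptor. Il10 was close, with 504 and 427 CPM, a ratio of 0.24 (0.053 to 0.43), and it was 0.0033 with the cells that had a Cd8a or Cd8b1 UMI left out of both, which kept 54 intestinal cells. Cd8a had 0 UMIs in splenic and 236 in intestinal cycling cells. Without the cells that had a Cd8a or Cd8b1 UMI, the ratio was -2.92 for Gzmb and -3.49 for Ccl5, against -3.25 and -3.93 with them. A cell of that type with no such UMI would remain.

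Il17a was also higher in cycling than in other cells of the intestine, with 174 and 33.5 CPM, a ratio of 2.38 (2.02 to 2.74), and Il17f had 2.95. Il10 had a ratio of -0.49 (-0.68 to -0.31) there and Lag3 one of -1.39, against 0.14 and -0.27 in spleen.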

How the data were processed

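Single-cell RNA-seq counts of sorted IL-10 eGFP+ CD4+ T cells were used, 1 library each from spleen (11103530 UMIs, 1738 barcodes) and small intestine (5693395 UMIs, 1474 barcodes), over 28009 listed genes that include reporter transcripts. The deposited values are whole UMI counts per gene and barcode, made by the authors with Trimmomatic and Cell Ranger on mm10, and not normalized. mm8 is also listed in the submitters' processing notes, with no role given there. The paper names it as the genome for its SMART-seq2 single-cell reads. Cells and gene lists were chosen with earlier results of these data known. Cells with 6% or more mt- UMIs were left out. UMIs were summed over the cells of a group and divided by the group's total. Intervals were Poisson for CPM, exact conditional binomial for ratios and Clopper-Pearson for shares. No test was run and no p-value was computed. Genes needed 100 UMIs over both groups, and 1.5-fold was the line for a call. The genes named are the rule genes, markers, Foxp3, Il10 and eGFP. They include, for each list, the 4 most abundant members and those with the highest and lowest ratio, with all members of the regulatory, Il10, cytokine, cytotoxic and coinhibitory lists allowed. To these come the 12 genes at each end with 200 UMIs on no list. Other listed genes were named after their values were seen. Thinning drew 3000 UMIs per cell without replacement (seed 1). Phases came from cyclone (scran 1.30.0, 1000 iterations), and doublet calls from Scrublet in scanpy 1.11.5. The ratio step was tested on simulated data. Promoters were taken from RefSeq, GRCm38.p6, and gene positions from GENCODE on the same build for 435 of 437 genes. Alternatives covered the rule, the mitochondrial limit, depth, phases, scale and thresholds. Results for some genes are not reported here.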

Additional observations from a re-analysis of the deposited data

Results flagged for a closer look

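Of the listed genes with at least 100 UMIs in each tissue, 3 were past the 1.5-fold line in opposite directions between cycling and other cells of spleen and intestine. The difference between the tissues was not tested for any of them, with 1 library each. S100a4 had a log2 ratio of 0.74 (0.66 to 0.83) in spleen and -1.29 (-2.63 to -0.21) in the small intestine, where the cycling cells held 7 of its UMIs. Lef1 had -0.71 (-0.94 to -0.48) in spleen and 1.07 (0.34 to 1.74) in the small intestine. Ccl3 had 1.40 in spleen, 0.93 with the top cell of each group left out, and -0.66 (-0.97 to -0.37) in the small intestine.

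Cells left out by the mitochondrial limit also held cycling transcripts. Of 57 such splenic cells 14 had a sum of at least 5, which is 24.6% (14.1 to 37.8), although their median was 3410 UMIs. With no mitochondrial limit the cycling cells numbered 391.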

How the results depend on the processing

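The share of cycling cells was 26.8% at a sum of at least 3, 18.3% at 10, 20.4% without 2810417H13Rik in the rule, 27.7% with the rule on counts thinned to 3000 UMIs and 13.9% without G2/M cells. It stayed within its interval under the 7 other alternatives tried for it (Mki67, Top2a, Birc5 or Cdk1 left out of the rule, no mitochondrial limit or one of 4%, and Scrublet calls left out). The counts of genes higher and lower were 1442 and 1333 at a minimum of 20 UMIs, 322 and 139 at 500 UMIs, and 482 and 146 at 2-fold. Among cells of 6000 to 15000 UMIs 340 genes were lower. The number of genes tested changed with the minimum and with the cells used, so these counts are not shares of the same genes, except those at 2-fold. The Foxp3 log2 ratio was above 0 in every alternative tried and lowest, at 0.29, among cells of 6000 to 15000 UMIs, where 13.2% of the other cells had a Foxp3 UMI at equal depth. At 5000 UMIs the shares were 21.5% and 18.6%. The Il10 ratio was 0.26 at a sum of at least 3, 0.22 with the thinned rule, 0.24 without G2/M cells and 0.037 among cells of 6000 to 15000 UMIs. With Foxp3 detection taken at 3000 UMIs, the ratios in cycling cells were 0.40 for Il2ra and -4.10 for Ccl5. Between the tissues, the Gzmb ratio was -3.52 with the thinned rule, and without cells that had a Cd8a or Cd8b1 UMI the ratios were 0.0033 for Il10, -2.92 for Gzmb and -3.49 for Ccl5. The cause of these shifts was not tested. Of 234 values for 13 single genes under the alternatives, 231 kept the direction, and the others were Gzmb at 0.04, 0.065 and 0.22. The size of the ratios was less stable than their direction. With further genes of the Foxp3 contrast counted too, 73 values lay outside the main value's interval and 169 inside it. The top cell and the cells with no Foxp3 UMI were chosen as alternatives after seeing the data. No paired analysis was possible because each tissue had 1 library. Depth limits every share of cells: a gene of few UMIs, such as Foxp3 or mRFP, is missed in many cells that express it.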
